A study of Mus musculus with 12 samples.

Results

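The S100 proteins are small calcium sensors, each with a pair of EF-hand calcium-binding loops, that mostly work as dimers. On binding calcium they expose a surface that grips partner proteins such as annexins, myosins and receptors, and some of them are also released from cells and act as danger signals. In kidney, S100g is known as a calcium buffer of the distal nephron, and S100a8 and S100a9 are best known from neutrophils and monocytes but are also made by stressed epithelia. The 10 genes described here were S100a1, S100a4, S100a6, S100a8, S100a9, S100a10, S100a11, S100a13, S100a14 and S100g. They were chosen from the S100 family with the stage and region values of these same arrays in view, so their own levels and differences are given as a description, with standard errors and without p-values. Of the 10, 9 had a probe set annotated with that gene alone, out of 18193 genes with such a probe set, and together they had 12 probe sets. S100a11 was not analysed here, because its 1 probe set carried 3 gene symbols. All 9 measured genes passed the brightness filter that left 12992 genes for testing.

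RNA from mouse kidney was hybridised to 12 Affymetrix arrays, 2 for each of 6 groups. The groups were kidney tissue, progenitor cells isolated from kidney and grown on a fibroblast feeder layer, and organoids prepared from cells in 3D Matrigel, a basement membrane gel, and each kind came from the medulla (inner kidney) and from the cortex (outer kidney). The labels describe the 2 arrays of a group as biological replicates, name no strain, age, genotype or treatment, and do not say whether the feeder cells were removed before RNA was taken. The comparisons asked how the cultured cells differed from the tissue, how the organoids differed from the progenitor cells, and whether region of origin was kept.

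The labels were set against marker genes first. Epcam, Cdh1, Krt8 and Krt18, general epithelial genes, lay above the array median on every array of all 3 kinds. The segment markers of the proximal tubule (Slc34a1, Lrp2, Miox, Slc5a2), the loop of Henle (Umod, Slc12a1) and the distal tubule (Slc12a3, Pvalb, Kl, Calb1) lay above it on all 4 tissue arrays. On all 4 progenitor arrays they lay below it, except Slc5a2, which was below it on 1. In organoids they were divided: Slc34a1, Lrp2, Miox, Slc12a1, Slc12a3, Pvalb and Kl lay below it on all 4 arrays, and Umod (log2 signals of 10.74 to 11.54), Slc5a2 (8.62 to 10.06) and Calb1 (6.51 to 10.18) above it on all 4. The principal cell markers Aqp2 and Aqp3 lay above the array median on all 4 tissue arrays and were mixed in the cultures. Aqp2 was below it on 2 of 4 progenitor and 3 of 4 organoid arrays, and Aqp3 on 3 of 4 and 2 of 4. The organoid arrays stood apart in their controls. Spiked-in poly-A transcripts had median log2 signals of 7.96 to 8.83 on tissue arrays, 7.03 to 7.37 on progenitor arrays and 1.21 to 1.88 on organoid arrays, and the 3′ minus 5′ difference of Gapdh was −0.23 to 0.18, −0.41 to −0.30 and 0.87 to 1.67 in the same order. These control values and the organoid stage cannot be told apart. Levels below are log2 signals as deposited. Differences are on the scale of log2(signal + 15.2), which shrinks the differences of dim genes, and their standard errors (SE) come from a limma fit of all 12 arrays. Stage differences are means over both regions, with 4 arrays a side. In such bulk samples, a change in the share of cells of a type and a change in RNA per cell cannot be told apart.

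**Figure D1:**
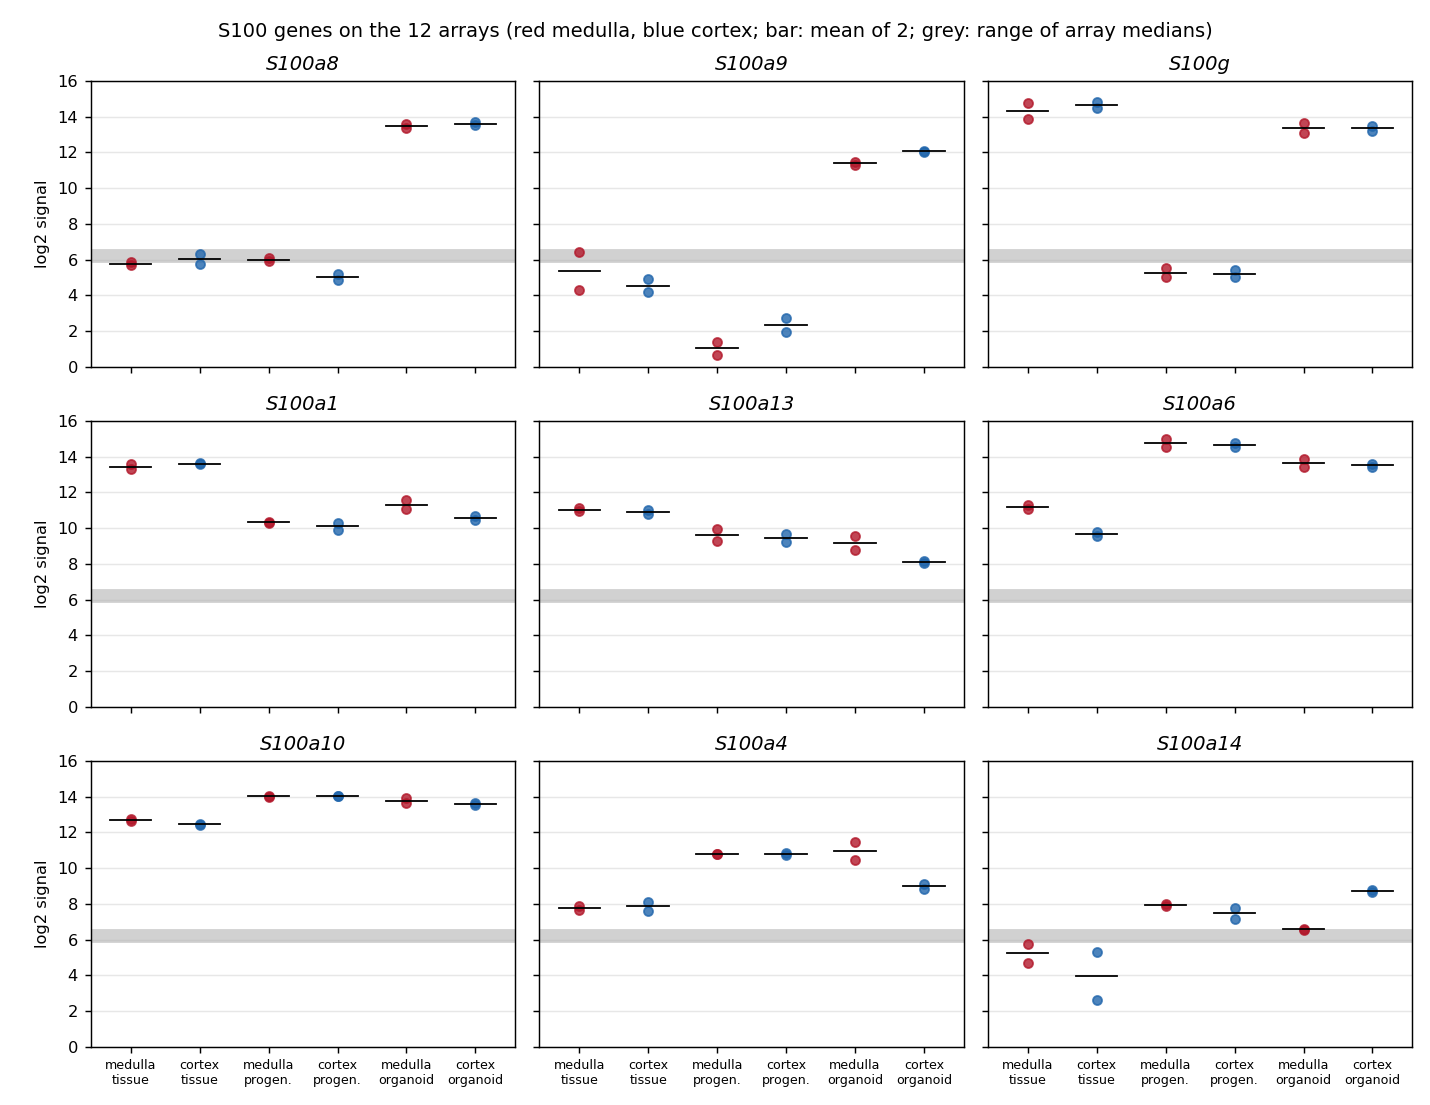
Log2 signal of the 9 measured S100 genes on each of the 12 arrays, by group (red, medulla; blue, cortex), with the mean of the 2 arrays of a group as a bar and the range of the 12 array medians in grey. S100a8 and S100a9 stood far above the grey band in organoids alone, S100g stood above it in tissue and organoids and below it in progenitor cells, and S100a6, S100a10 and S100a4 were lowest in tissue.

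S100a8 and S100a9, whose proteins pair to form calprotectin, a metal-binding defence protein and a ligand of Tlr4 and Ager, were bright in organoids alone. S100a8 had log2 signals of 5.84 and 5.67 in medulla tissue, 6.29 and 5.77 in cortex tissue, 5.92 and 6.08 in medulla progenitor cells, 4.86 and 5.17 in cortex progenitor cells, 13.62 and 13.37 in medulla organoids, and 13.71 and 13.52 in cortex organoids. The 4 organoid arrays lay far above the other 8, and 3 of 4 progenitor arrays and 3 of 4 tissue arrays were below their array's median. S100a9 had 6.40 and 4.32 in medulla tissue, 4.16 and 4.92 in cortex tissue, 1.36 and 0.68 in medulla progenitor cells, 1.93 and 2.73 in cortex progenitor cells, 11.32 and 11.48 in medulla organoids, and 12.05 and 12.10 in cortex organoids. Here too the organoid arrays did not overlap with any other, and the progenitor arrays were the lowest. In organoids against progenitor cells, S100a8 was higher by 7.62 ± 0.16 and S100a9 by 7.52 ± 0.29 (SE), and against tissue the differences were 7.33 ± 0.16 and 6.16 ± 0.29. The sizes depended on the processing. For organoids against progenitor cells they ranged over the alternatives from 6.70 to 8.03 for S100a8 and from 5.58 to 9.64 for S100a9. Both regions showed the pattern. The organoid over progenitor difference of S100a8 was 7.19 ± 0.22 in medulla and 8.04 ± 0.22 in cortex, and that of S100a9 was 7.30 ± 0.41 in medulla and 7.73 ± 0.41 in cortex. Over the 12 arrays the 2 genes correlated with r = 0.978, which mostly describes the gap between organoids and the rest.

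S100g, also called calbindin-D9k, which ferries calcium through the cytosol of distal tubule and gut cells and answers to vitamin D, was bright in tissue, dim in progenitor cells and bright again in organoids. Its log2 signals were 13.86 and 14.77 in medulla tissue, 14.49 and 14.85 in cortex tissue, 5.50 and 5.04 in medulla progenitor cells, 5.39 and 5.03 in cortex progenitor cells, 13.67 and 13.08 in medulla organoids, and 13.48 and 13.22 in cortex organoids. All 4 progenitor arrays lay below their array's median, and the organoid arrays all lay below the 4 tissue arrays. In progenitor cells against tissue it was lower, with a difference of −8.77 ± 0.20, in organoids against progenitor cells higher by 7.63 ± 0.20, and in organoids against tissue lower, with a difference of −1.13 ± 0.20 (SE). With quantile normalization that last difference was −0.41. The medulla minus cortex difference of S100g was 0.02 ± 0.28 in organoids, 0.04 ± 0.28 in progenitor cells and −0.35 ± 0.28 in tissue.

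The 250 bases before the annotated starts of these 3 genes are shown because their differences between organoids and progenitor cells were the largest of the 9 measured genes. They are RefSeq sequence of build GRCm38.p6, 5′ to 3′ on the gene's own strand, at chr3:90668821-90669070 (plus strand) for S100a8, chr3:90695722-90695971 (minus strand) for S100a9 and chrX:162964600-162964849 (minus strand) for S100g. Capitals mark matches on either strand to the C/EBP pattern TTNNGNAA and to the TATA box TATAAA.
S100a8: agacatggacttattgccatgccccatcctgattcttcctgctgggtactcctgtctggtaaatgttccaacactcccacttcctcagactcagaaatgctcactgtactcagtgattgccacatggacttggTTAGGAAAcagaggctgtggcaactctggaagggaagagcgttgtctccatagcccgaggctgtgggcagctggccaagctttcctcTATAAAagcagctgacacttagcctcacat
S100a9: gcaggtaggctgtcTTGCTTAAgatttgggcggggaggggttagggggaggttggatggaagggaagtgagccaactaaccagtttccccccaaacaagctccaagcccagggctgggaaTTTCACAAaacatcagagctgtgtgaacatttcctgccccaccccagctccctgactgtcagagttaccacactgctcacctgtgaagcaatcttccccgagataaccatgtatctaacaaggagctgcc
S100g: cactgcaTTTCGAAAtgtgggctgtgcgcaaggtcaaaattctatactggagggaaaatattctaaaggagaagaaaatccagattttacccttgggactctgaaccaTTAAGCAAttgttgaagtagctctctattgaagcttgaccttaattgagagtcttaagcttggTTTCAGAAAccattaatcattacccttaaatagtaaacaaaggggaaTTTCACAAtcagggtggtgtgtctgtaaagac

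The promoter table held 8 of the 10 genes. The C/EBP pattern was found in 3 of those 8 windows, with 1 match in S100a8, 2 in S100a9 and 5 in S100g, of which 2 overlapped, and in 36.8% of all 32851 promoter windows of this length. The TATA box was found in S100a8, from 30 to 25 bases before the start, and in S100a4, from 31 to 26 bases before it, and in 12.4% of all windows. The AP-1 pattern TGANTCA was found, with 2 matches, in 1 of the 8 (S100a11, whose level is not given here) and in 6.75% of all windows, and the STAT pattern TTCNNNGAA in 0 of the 8 and in 7.02% of all. These matches describe letters only.

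The transcription factors of the C/EBP family, which drive S100a8 and S100a9 in myeloid cells, were followed as listed genes outside the family described. Cebpa rose in organoids against progenitor cells by 3.50 ± 0.18 (adjusted p = 1.01e-08 in limma with Benjamini-Hochberg adjustment, as for all adjusted p-values here), and all 4 organoid arrays, at 9.3 to 9.6, lay above the progenitor arrays, at 5.1 to 6.3. In tissue, where S100a8 and S100a9 were dim, Cebpa was at 9.54 or above on all 4 arrays, and its organoid minus tissue difference was −0.40 ± 0.18 (adjusted p = 0.0639). Cebpb fell, with a difference of −1.10 ± 0.08 (adjusted p = 1.8e-07), and Cebpd, with a difference of 0.32 ± 0.11 (adjusted p = 0.018), rose slightly. The part of these factors in the S100a8 and S100a9 levels was not tested. Of 26 tested inflammatory regulators and epithelial genes induced by inflammation, 17 rose and 8 fell in organoids against progenitor cells. The list's median was 0.74, against −0.29 over all genes tested. The largest rises were those of Pigr, the receptor that carries antibodies across epithelia (7.59 ± 0.14, adjusted p = 5.81e-12), Chil1, a chitinase-like secreted protein (6.68 ± 0.34, adjusted p = 7.42e-09), and Saa3, an acute-phase protein (3.69 ± 0.19, adjusted p = 7.96e-09). The largest falls were those of Il6 (−3.06 ± 0.30, adjusted p = 1.75e-06), Il17rc (−2.02 ± 0.15, adjusted p = 1.8e-07), Il1b (−1.35 ± 0.23, adjusted p = 0.000193) and Ptgs2 (−1.34 ± 0.14, adjusted p = 3.67e-06). Lcn2, an iron-scavenging defence protein released by injured tubules, fell too, with a difference of −0.79 ± 0.27 (adjusted p = 0.021).

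Myeloid cell markers were set beside S100a8 and S100a9, since granulocytes carry both. Of 27 listed markers 24 were measured, and 19 of the 24 lay below the array median on all 4 organoid arrays, among them the granulocyte genes Mpo, Elane, Prtn3, Ngp, Camp, Cxcr2, Csf3r and Mmp8 and the broader leukocyte genes Itgam, Itgb2, Lyz2, Tyrobp and Coro1a. Against progenitor cells, 4 of 15 tested markers rose and 4 fell in organoids, with a median of −0.05. The 4 that rose were Ltf, the secreted iron-binding lactoferrin (3.74 ± 0.20, adjusted p = 1.34e-08), Ptprc, the leukocyte surface phosphatase CD45 (3.18 ± 0.19, adjusted p = 3.09e-08), Csf1r, a macrophage growth factor receptor (1.70 ± 0.15, adjusted p = 6.17e-07), and Cd14, a co-receptor of Tlr4 (1.18 ± 0.14, adjusted p = 1.13e-05). The summed unlogged signal of the list was 5803 to 10133 in tissue, 3339 to 3783 in progenitor cells and 14779 to 19040 in organoids, and Ltf, at log2 signals of 13.2 to 13.7, made up most of the organoid sum. Their part in the S100a8 and S100a9 levels was not tested beyond these values. Of the receptors of calprotectin named above, Tlr4 rose by 2.08 ± 0.17 in organoids against progenitor cells (adjusted p = 3.66e-07) and by 4.0 ± 0.17 against tissue (adjusted p = 6.86e-10), while Ager was below the filter, with log2 signals of 3.4 to 6.1 in organoids. Cd36, reported to bind S100a8 and S100a9, rose by 1.85 ± 0.30 against progenitor cells (adjusted p = 0.000156) but fell against tissue, with a difference of −5.53 ± 0.30 (adjusted p = 6.78e-09). Bsg, also listed among S100 binding partners and receptors, fell in both, with differences of −0.50 ± 0.07 (adjusted p = 6.41e-05) and −0.55 ± 0.07 (adjusted p = 2.16e-05).

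**Figure D2:**
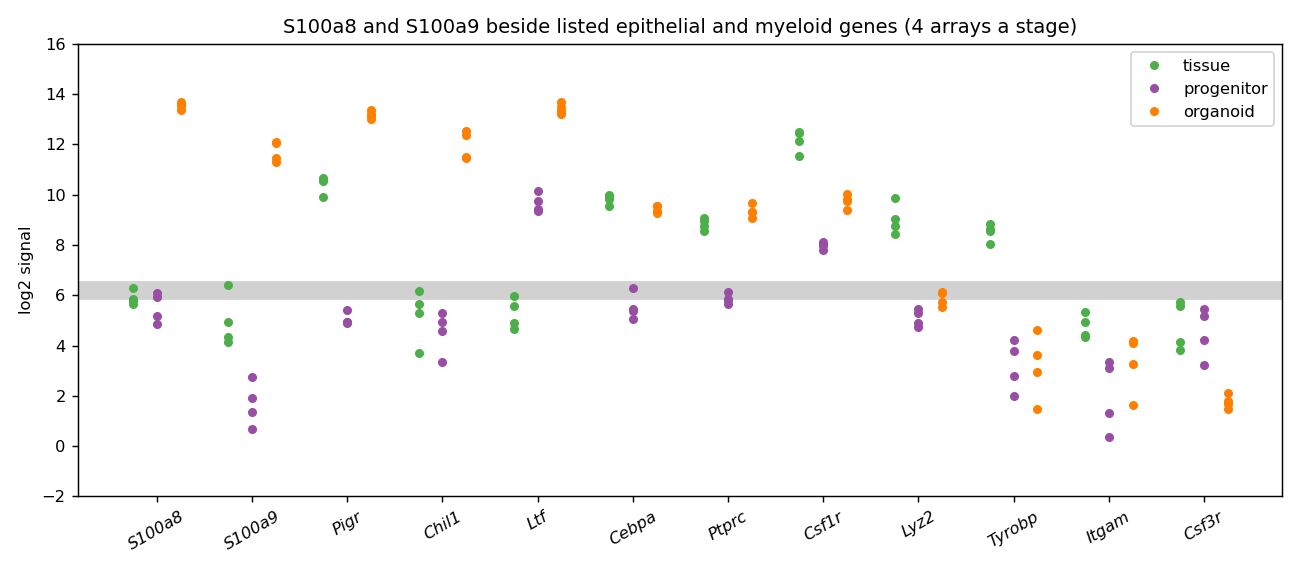
Log2 signals of S100a8 and S100a9 on the 12 arrays beside 4 listed genes that rose in organoids against progenitor cells on the left (Pigr, Chil1, Ltf, Cebpa) and 6 leukocyte or myeloid genes on the right, with 4 arrays a stage as points and the range of array medians in grey. Itgam and Csf3r lay below the grey band at every stage, and Tyrobp was above it in tissue only. Ptprc (9.06 to 9.68) and Csf1r (9.41 to 10.02) lay above it in organoids. Ltf, on the left, was listed as a myeloid marker too. Brightness is compared within a gene, not between genes.

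Genes listed under distal tubule calcium transport, regulators and receptors as well as transporters, were set beside S100g. They mostly fell in progenitor cells, and fewer of them rose again in organoids. In progenitor cells against tissue 12 of 14 tested genes fell and 1 rose, with a median of −4.56 against 0.03 over all genes, and in organoids against progenitor cells 5 rose and 2 fell, with a median of 0.02. Trpv6, an apical calcium channel, rose by 4.81 ± 0.38 in organoids against progenitor cells (adjusted p = 3.14e-07) and by 3.86 ± 0.38 against tissue (adjusted p = 1.41e-06). Calb1, the larger calbindin that buffers calcium in the same cells, rose by 3.55 ± 0.17 against progenitor cells (adjusted p = 5.04e-09) but fell against tissue, with a difference of −5.76 ± 0.17 (adjusted p = 4.21e-11). Vdr, the vitamin D receptor, rose by 2.07 ± 0.19 against progenitor cells (adjusted p = 1.18e-06) and fell against tissue, with a difference of −2.95 ± 0.19 (adjusted p = 2.94e-08). Wnk4, a kinase that regulates distal salt transport, rose by 1.92 ± 0.17 against progenitor cells (adjusted p = 6.87e-07). The 2 that fell against progenitor cells were Pvalb (−1.64 ± 0.26, adjusted p = 0.000115) and the calcium pump Atp2b1 (−1.04 ± 0.10, adjusted p = 1.54e-06). For the basolateral calcium exchanger Slc8a1 the organoid minus progenitor difference was −0.07 ± 0.32 (adjusted p = 0.843), for the salt transporter Slc12a3 −0.05 ± 0.32 (adjusted p = 0.902), for Kl −0.51 ± 0.33 (adjusted p = 0.177) and for Pth1r, the parathyroid hormone receptor, 0.10 ± 0.38 (adjusted p = 0.83). Trpv5, the other apical channel, was not analysed here.

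**Figure D3:**
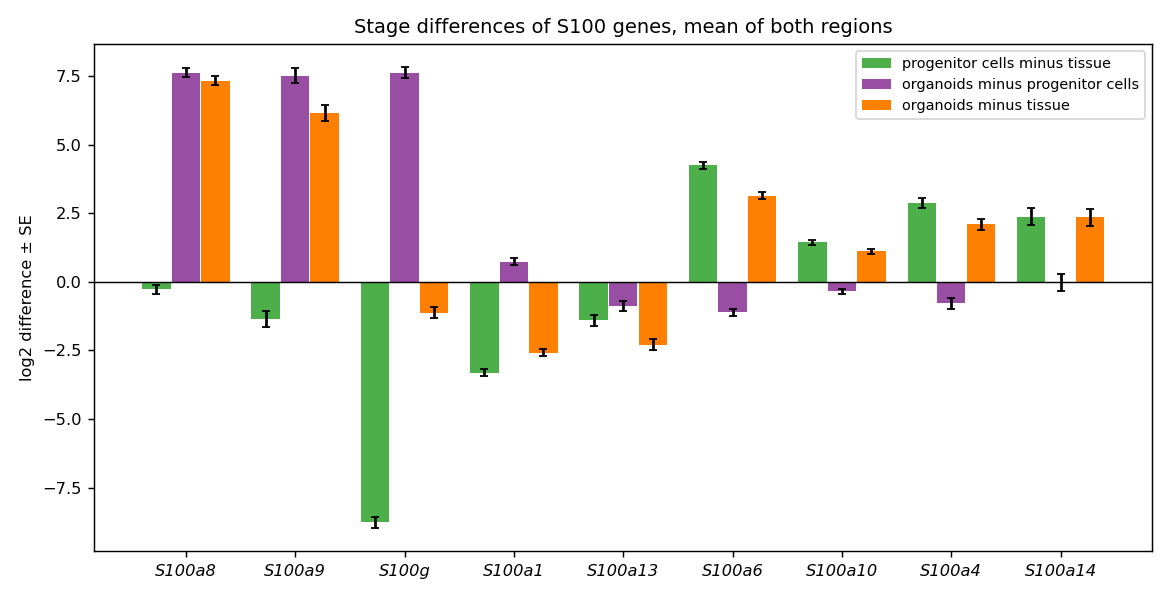
Log2 differences (on the offset scale, mean of both regions, 4 arrays a side) of the 9 S100 genes for progenitor cells minus tissue, organoids minus progenitor cells, and organoids minus tissue, with SE from the limma fit as error bars. S100g was near −8.77 in progenitor cells against tissue and 7.63 in organoids against progenitor cells, S100a8 and S100a9 had no positive bar in the first comparison, and S100a6 had the tallest positive bar there, at 4.25.

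S100a1 and S100a13 were brighter in tissue than in either culture. S100a1, best known as a regulator of calcium release and uptake in heart muscle, had log2 signals of 13.31 and 13.58 in medulla tissue, 13.59 and 13.65 in cortex tissue, 10.29 and 10.35 in medulla progenitor cells, 10.30 and 9.90 in cortex progenitor cells, 11.05 and 11.56 in medulla organoids, and 10.48 and 10.71 in cortex organoids. The 3 stages did not overlap, and the progenitor arrays were the lowest. S100a1 was lower in progenitor cells than in tissue, with a difference of −3.31 ± 0.13, and in organoids the difference from progenitor cells was 0.73 ± 0.13 and that from tissue −2.58 ± 0.13 (SE). Its second probe set showed the same fall from the tissue level in progenitor cells, −2.75 ± 0.15, but the opposite sign in organoids against progenitor cells, −0.89 ± 0.15, so the direction of S100a1 between the cultures depended on the probe set.

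S100a13, which helps to export Fgf1 and Il1a without a signal peptide, had 10.97 and 11.11 in medulla tissue, 10.79 and 11.04 in cortex tissue, 9.30 and 9.97 in medulla progenitor cells, 9.69 and 9.23 in cortex progenitor cells, 9.56 and 8.79 in medulla organoids, and 8.03 and 8.15 in cortex organoids. The 4 tissue arrays lay above all culture arrays, and the organoid and progenitor arrays overlapped through the medulla. Its differences were −1.41 ± 0.19 in progenitor cells against tissue, −0.89 ± 0.19 in organoids against progenitor cells and −2.29 ± 0.19 in organoids against tissue (SE). Of its cargoes, Fgf1 fell in organoids against tissue, with a difference of −4.09 ± 0.16 (adjusted p = 3.44e-10), and Il1a rose by 3.23 ± 0.40 (adjusted p = 1.07e-05).

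By the probe sets used in the fit, S100a6, S100a10 and S100a4 were brighter in the cultures than in tissue. S100a6, or calcyclin, a gene of proliferating cells and of epithelium, had log2 signals of 11.09 and 11.30 in medulla tissue, 9.56 and 9.81 in cortex tissue, 14.52 and 15.01 in medulla progenitor cells, 14.75 and 14.55 in cortex progenitor cells, 13.90 and 13.45 in medulla organoids, and 13.61 and 13.45 in cortex organoids. The 3 stages did not overlap, and in tissue the medulla arrays lay above the cortex arrays. S100a6 was higher by 4.25 ± 0.13 in progenitor cells against tissue and by 3.14 ± 0.13 in organoids against tissue, and lower in organoids against progenitor cells, with a difference of −1.11 ± 0.13 (SE). With quantile normalization the last difference was −0.32. In medulla the progenitor over tissue difference was 3.56 ± 0.19, and in cortex it was 4.94 ± 0.19.

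S100a10, or p11, which holds Anxa2 at the plasma membrane and has lost the ability to bind calcium, had 12.65 and 12.76 in medulla tissue, 12.44 and 12.47 in cortex tissue, 14.07 and 13.97 in medulla progenitor cells, 14.06 and 14.03 in cortex progenitor cells, 13.92 and 13.64 in medulla organoids, and 13.68 and 13.53 in cortex organoids. All 8 culture arrays lay above all 4 tissue arrays. The differences were 1.45 ± 0.09 in progenitor cells against tissue, −0.34 ± 0.09 in organoids against progenitor cells and 1.11 ± 0.09 in organoids against tissue (SE). Its 3 probe sets shared the direction in progenitor cells against tissue but not in organoids against tissue. The second brightest had 2.19 ± 0.10 in progenitor cells against tissue, −2.65 ± 0.10 in organoids against progenitor cells and −0.46 ± 0.10 in organoids against tissue. Quantile normalization turned the sign of the organoid against progenitor difference of S100a10, to 0.39, so the place of its organoid level relative to the other stages was not settled by these arrays.

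**Figure D4:**
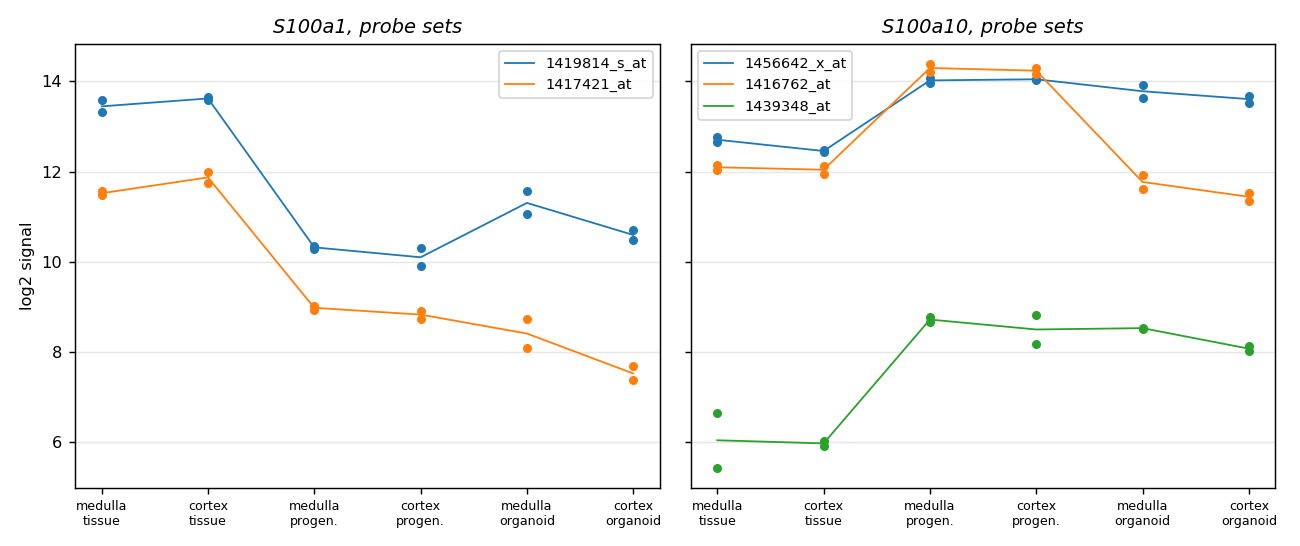
Log2 signal of every single-symbol probe set of S100a1 and S100a10, with points for the 2 arrays of a group and lines through the group means. The probe sets of S100a1 ran apart in organoids, and of S100a10 the second brightest was slightly below its tissue level in organoids, whereas the brightest, used in the fit, stayed above it.

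S100a4, known for binding the non-muscle myosin Myh9 and as a marker of fibroblasts and migrating cells, had 7.68 and 7.87 in medulla tissue, 7.63 and 8.10 in cortex tissue, 10.78 and 10.77 in medulla progenitor cells, 10.73 and 10.83 in cortex progenitor cells, 11.45 and 10.46 in medulla organoids, and 8.86 and 9.11 in cortex organoids. All culture arrays lay above all tissue arrays, and the cortex organoids lay below the medulla organoids and below both kinds of progenitor cells. The differences were 2.88 ± 0.19 in progenitor cells against tissue, −0.79 ± 0.19 in organoids against progenitor cells and 2.09 ± 0.19 in organoids against tissue (SE). S100a14, a member found mostly in epithelia, had 5.78 and 4.70 in medulla tissue, 5.32 and 2.64 in cortex tissue, 7.87 and 7.99 in medulla progenitor cells, 7.18 and 7.77 in cortex progenitor cells, 6.58 and 6.56 in medulla organoids, and 8.77 and 8.66 in cortex organoids. All 4 tissue arrays were below their array's median and below all culture arrays. Its differences were 2.38 ± 0.30 in progenitor cells against tissue, −0.03 ± 0.30 in organoids against progenitor cells and 2.35 ± 0.30 in organoids against tissue (SE). With the median signal as offset the differences from tissue were 1.49 in progenitor cells and 1.51 in organoids, and with an offset of 1 they were 3.02 and 2.96.

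Fibroblast markers were set beside S100a4 and S100a6 because the progenitor cells grew on fibroblasts. Of 20 listed markers 19 were measured. Their summed unlogged signal was 11407 to 15581 in medulla tissue, 8881 to 15040 in cortex tissue, 32347 to 36569 in medulla progenitor cells, 25182 to 25741 in cortex progenitor cells, 14064 to 15775 in medulla organoids and 3749 to 4112 in cortex organoids. In progenitor cells against tissue 13 of 19 rose and 4 fell, with Fn1 (3.38 ± 0.18, adjusted p = 6.76e-09) and Col1a1 (3.28 ± 0.12, adjusted p = 2.38e-10), both matrix genes, the largest rises. In organoids against progenitor cells 15 fell and 1, Col1a1 (1.37 ± 0.12, adjusted p = 7.63e-07), rose. The list median was 1.26 in progenitor cells against tissue, where that of all genes was 0.03, and −1.41 in organoids against progenitor cells, where that of all genes was −0.29. The cortex organoids had the lowest sum of the 6 groups and, among the cultures, the lowest S100a4. In tissue, where the sum was above that of cortex organoids, S100a4 was lower still, at means of 7.77 in medulla and 7.86 in cortex. S100a6 had means of 13.67 in medulla organoids and 13.53 in cortex organoids, with overlapping arrays. The part of fibroblasts in S100a4 and S100a6 was not tested.

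Genes of the proteins that S100 dimers grip were counted at the same steps. Of 20 tested binding partners and receptors, 15 rose and 3 fell in progenitor cells against tissue (median 1.35). Anxa1, the partner of S100a11, rose by 5.06 ± 0.15 (adjusted p = 4.06e-11), and Anxa2, the partner of S100a10, by 3.64 ± 0.15 (adjusted p = 4.69e-10). Ahnak, a giant scaffold bound by S100a10 and Anxa2, rose by 2.43 ± 0.13 (adjusted p = 4.71e-09), and Cacybp, the calcyclin-binding protein, by 1.25 ± 0.11 (adjusted p = 6.74e-07). Mdm2, which several S100 proteins bind, rose by 3.36 ± 0.09 (adjusted p = 1.76e-11), and Cd36, a fatty acid receptor reported to bind S100a8 and S100a9, fell, with a difference of −7.38 ± 0.30 (adjusted p = 5.97e-10). In organoids against progenitor cells 7 rose and 10 fell (median −0.55). Anxa1 and Anxa2 fell there, with differences of −2.05 ± 0.15 (adjusted p = 1.61e-07) and −2.0 ± 0.15 (adjusted p = 1.54e-07), and so did Sugt1, a co-chaperone bound by S100a6 (−2.23 ± 0.11, adjusted p = 5.27e-09). Alcam, an adhesion molecule reported to bind S100b, rose by 3.18 ± 0.13 (adjusted p = 2.26e-09). In organoids against tissue 13 rose and 7 fell (median 0.80), with Anxa2 at 1.64 ± 0.15 (adjusted p = 5.23e-07). The median of all genes was −0.28 in that comparison.

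Of the 7 S100 genes outside the 10, 5 were measured and 3 passed the filter. S100a3, known from hair, rose by 1.51 ± 0.27 in progenitor cells against tissue (adjusted p = 0.000324) and fell in organoids against progenitor cells, with a difference of −2.85 ± 0.27 (adjusted p = 1.67e-06). S100a16 rose by 0.84 ± 0.08 in progenitor cells against tissue (adjusted p = 1.69e-06), and its organoid minus progenitor difference was −0.02 ± 0.08 (adjusted p = 0.837). S100a7l2 rose by 3.19 ± 0.31 in organoids against progenitor cells (adjusted p = 1.84e-06). S100a5 and S100b stayed below the filter. In RefSeq's annotation of GRCm38.p6, 15 S100 genes are on chromosome 3 and 9 of the 10 described genes are among them, while S100g is on chromosome X. Counting S100 genes alone, S100a8, S100a9 and S100a7l2 follow one another there, and S100a6 precedes them with S100a7a between.

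Other small EF-hand proteins were counted alongside. In progenitor cells against tissue 12 of 20 rose and 6 fell (median 0.59), among them Tnnc2, a troponin (3.06 ± 0.42, adjusted p = 3.32e-05), and Calml4, a calmodulin-like protein of the brush border (−8.41 ± 0.32, adjusted p = 3.19e-10). In organoids against progenitor cells 2 rose and 13 fell (median −0.74), with Tnnc2 at −2.83 ± 0.42 (adjusted p = 7.09e-05) and Myl9, a myosin light chain, at −2.43 ± 0.31 (adjusted p = 1.98e-05). In organoids against tissue 6 rose and 9 fell (median −0.31), and Calml4 was still low (−8.76 ± 0.32, adjusted p = 2.34e-10). S100a6 and S100a10, EF-hand genes too, were above tissue in organoids by the probe sets used.

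Counted over the 9 measured genes, 4 were higher and 4 lower past the threshold of adjusted p = 0.05 in progenitor cells against tissue, where 36.9% of all 12992 genes were higher and 35.8% lower, and the arrays of 8 did not overlap, against 73.0% of all genes. In organoids against progenitor cells 4 were higher and 4 lower, where 28.0% of all genes were higher and 44.3% lower, and 6 did not overlap, against 60.9%. In organoids against tissue 6 were higher and 3 lower, where 33.1% of all genes were higher and 46.5% lower, and 9 did not overlap, against 66.2%. Since the genes were picked with these comparisons in view, nothing is read from these counts.

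The regions of origin were compared within each stage. The S100 genes were chosen with the region values in view as well, so the counts past the threshold stand beside the share of all genes and nothing is read from them. The labels had been set against markers by stage, not by region. The distal tubule marker Slc12a3 had log2 signals of 11.76 and 12.76 in medulla tissue, and 12.78 and 13.01 in cortex tissue. Kl had 12.62 and 13.21 in medulla tissue, and 13.49 and 13.43 in cortex tissue. How cleanly the tissue regions were separated was not tested. In tissue, the medulla minus cortex difference of S100a6 was 1.5 ± 0.19 (SE), and those of the other 8 S100 genes lay between −0.35 and 0.64. Of the 9, 1 (S100a6) was past the threshold, against 0.308% of all genes, and it was no longer past it without the first cortex tissue array (1.38), without the variance trend or with the tissue arrays fitted alone, where 0 of all 12992 genes passed. In progenitor cells the differences lay between −0.24 and 0.73, and 0 of 9 were past the threshold in limma (1 of 9 at an unadjusted p under 0.05), against 0.316% of all genes.

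In organoids S100a4 was higher in medulla than in cortex by 1.94 ± 0.27, S100a13 by 1.05 ± 0.27 and S100a1 by 0.71 ± 0.18, while S100a14 was lower, with a difference of −1.98 ± 0.43 (SE). These were 4 of 9 past the threshold, against 18.0% of all genes. The control of RNA quality moved with region too: the Gapdh 3′ minus 5′ difference was 1.15 and 0.87 in medulla organoids, against 1.53 and 1.67 in cortex organoids, and its part in the region differences was not tested. The 2 medulla organoid arrays differed from each other more than those of any other group, with a median absolute log2 difference over genes of 0.415 against 0.128 to 0.225. Without the first of them the difference of S100a4 was 1.44, and without the second it was 2.43. Leaving out the first or the second cortex organoid array took S100a1 (0.59 and 0.82), S100a13 (0.99 and 1.10) and S100a14 (−1.93 and −2.04) below the threshold, as did leaving out the second medulla organoid array for S100a1 (0.45) and the first for S100a13 (0.67). Fitting the organoid arrays alone ended the same 3 calls, dropping the variance trend ended that of S100a1, and an offset of 1 ended that of S100a14 (−2.13).

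**Figure D5:**
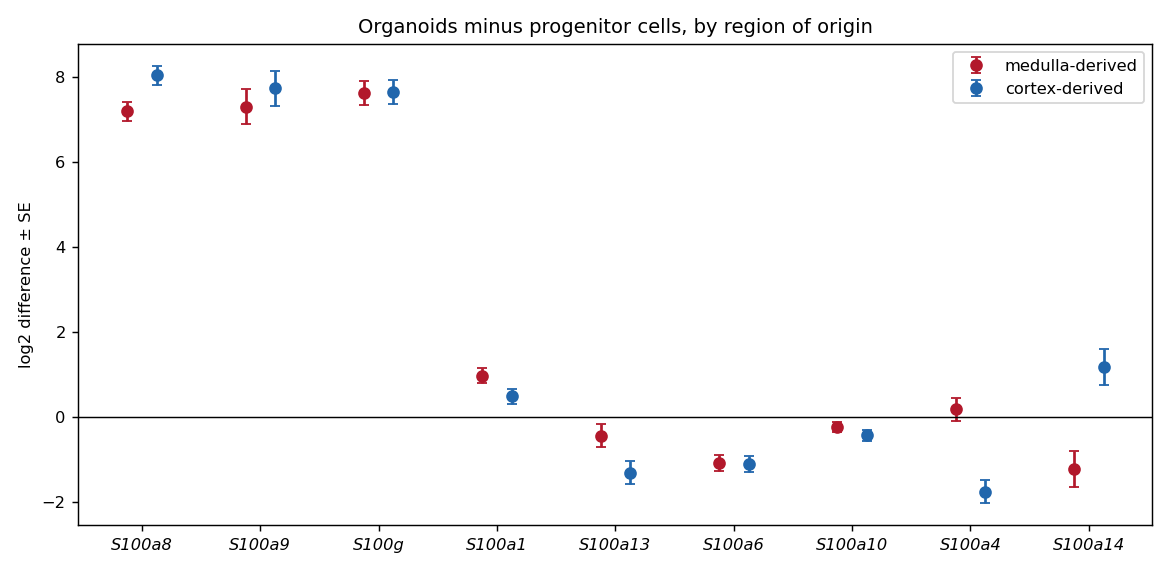
Organoids minus progenitor cells for each S100 gene, by region of origin (red, medulla; blue, cortex; 2 arrays a side), as log2 differences on the offset scale with SE. S100a14 lay below 0 in medulla (−1.23) and above 0 in cortex (1.17), S100a4 was near 0 in medulla (0.18) and below it in cortex (−1.76), and S100a8, S100a9 and S100g lay between 7.19 and 8.04 in both.

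The region difference in organoids minus that in progenitor cells was 1.94 ± 0.38 for S100a4 and −2.41 ± 0.61 for S100a14 (SE), and these were 2 of 9 past the threshold, against 4.09% of all genes, from which again nothing is read. Without any 1 of the progenitor or cortex organoid arrays neither stayed past it, with values of 1.82 to 2.07 for S100a4 and −2.68 to −2.14 for S100a14. S100a14 was also below it with 75th percentile scaling (−2.38), with an offset of 1 (−2.59), and, at −2.41 each, without the brightness filter, without the variance trend, with the replicate block and without either medulla tissue array. S100a14 was lower in medulla organoids than in medulla progenitor cells (−1.23 ± 0.43) and higher in cortex organoids than in cortex progenitor cells (1.17 ± 0.43), with no overlap of arrays in either region. The organoid minus progenitor difference of S100a4 was 0.18 ± 0.27 in medulla, with overlapping arrays, and −1.76 ± 0.27 in cortex. For S100a8, S100a9 and S100g the region differences in organoids, −0.12 ± 0.22, −0.67 ± 0.41 and 0.02 ± 0.28, were small beside their stage differences.

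Listed genes divided the organoids by region too. Of the 117 tested, 27 rose and 9 fell in medulla organoids against cortex organoids, and 14 of the 19 fibroblast markers were among those that rose while 0 fell (list median 1.92, against 0.00 over all genes; the count was 7 when the organoid arrays were fitted alone). The largest were Col6a3 (3.33 ± 0.46, adjusted p = 0.00087), Dcn (3.13 ± 0.32, adjusted p = 0.000132) and Sparc (2.66 ± 0.21, adjusted p = 4.59e-05), all of the extracellular matrix, and they moved in the same direction as S100a4. S100a7l2 rose in medulla against cortex organoids by 3.57 ± 0.44 (adjusted p = 0.000413), with log2 signals of 8.8 and 9.9 in medulla organoids and 5.2 and 5.6 in cortex organoids. Calb1 rose by 3.05 ± 0.24 (adjusted p = 3.6e-05), with 9.9 and 10.2 in medulla organoids and 7.2 and 6.5 in cortex organoids, whereas the difference of S100g there was 0.02 ± 0.28. Saa1, an acute-phase protein, rose by 5.01 ± 0.47 (adjusted p = 8.8e-05), and Tlr4 fell, with a difference of −1.19 ± 0.24 (adjusted p = 0.00595). In tissue 0 of the 117 list genes passed in limma (15 at an unadjusted p under 0.05), and in progenitor cells 1 did, Klf4, an epithelial transcription factor (−1.0 ± 0.15, adjusted p = 0.00964). The counts for organoids depended on single arrays: without the first or the second cortex organoid array 21 list genes passed instead of 36, and without the second medulla organoid array 46 did.

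Ordered by level, S100a8 was highest in cortex organoids (13.61 ± 0.13, SD, n = 2), whose arrays overlapped those of medulla organoids (13.50 ± 0.18), and every other group was at 6.03 or below. S100a9 was highest in cortex organoids (12.08 ± 0.03) and next in medulla organoids (11.40 ± 0.11), which did not overlap. S100g was highest in cortex tissue (14.67 ± 0.25) and medulla tissue (14.32 ± 0.65), which overlapped, then in medulla organoids (13.37 ± 0.42) and cortex organoids (13.35 ± 0.19), which overlapped too. S100a6 was highest in medulla progenitor cells (14.77 ± 0.35) and cortex progenitor cells (14.65 ± 0.14), which overlapped, and lowest in cortex tissue (9.68 ± 0.17).

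The genes outside the family whose profiles over the 12 arrays were most like those of the S100 genes were found by Pearson correlation, as a description in which the 3 stages do most of the work. S100a8 was most like Ptcd1 (r = 0.996), Trim72 and Rpf2, and S100a9 most like Dcaf6 (r = 0.994), Socs7 and Gpbp1l1. S100g was most like Gpc4 (r = 0.996), Sdha and Pink1, and S100a1 most like Retsat (r = 0.996), Azgp1 and Entpd5. S100a6 was most like the simple epithelial keratins Krt18 (r = 0.994) and Krt19 and like Pkm, and S100a10 most like Basp1 (r = 0.991), Iqgap1 and Klc3. S100a13 was most like Med28 (r = 0.991), Gaa and Ndufa4, S100a4 most like Tirap (r = 0.981), Arhgef4 and Tbl3, and S100a14 most like Pfkfb3 (r = 0.970), Ifnlr1 and Il17rd. Within the family S100a6 and S100a10 correlated with r = 0.985, and S100a1 correlated with S100a10 with r = −0.966.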

How the data were processed

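The deposited values were log2 signals per probe set of 45101 probe sets on 12 arrays, made with MAS5 per the submitters' processing notes (no MAS5 version was stated). Log2 values the authors deposited gave, unlogged and trimmed by 2% at each end, a mean of 500 when averaged over the 12 arrays. Detection calls were not used here. The platform annotation gave 1 symbol to 34945 non-control probe sets. The probe set with the highest mean stood for each of 18193 genes, and the 12992 genes tested were brighter than the median probe set of each array in both members of 1 group or more. Signals were unlogged, 15.1592 (the 25th percentile) was added and log2 was taken again. All 12 arrays entered 1 fit of 6 group means with a mean-variance trend in limma 3.58.1 (R 4.3.3; 6 residual degrees of freedom), with two-sided tests and p-values adjusted by Benjamini-Hochberg across the 12992 genes. The fit was also run on simulated data with normal noise of equal spread in all groups. These arrays differed in spread between groups, so that run does not check the fit for them. With 2 arrays a group, whose separate origin the labels state only as biological replicates, precision is limited. Each p-value sets a difference against 1 estimate of the spread between replicate arrays, pooled over the 6 groups, although the groups differed in spread.

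The genes described and the 7 lists (153 genes, written from textbook roles) were chosen with earlier results of these data known. Besides the described genes, the text names up to 4 genes per list and comparison with the largest differences past the threshold, 14 genes named whether they changed or not, and some further list genes chosen after their values were seen. Suffixed probe sets such as the _s_at of S100a1 and S100a8 and the _x_at of S100a10 can match more than 1 transcript. The labels do not say whether arrays with equal replicate numbers shared an animal or culture, and the main fit did not pair them. Deviations from group means correlated between −0.138 and 0.056 over 15 group pairs, which cannot show whether they did. Promoter sequences were RefSeq's, from GRCm38.p6. The alternatives were other normalizations, offsets, filters, probe set rules and variance models, the replicate block, and leaving out each array.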

Additional observations from a re-analysis of the deposited data

Results flagged for a closer look

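S100a14 moved in opposite directions in the 2 regions, with both organoid arrays below both progenitor arrays in medulla and above both in cortex. The difference of the region differences was −2.41. It is a description: S100a14 was chosen on these values, and its place past the threshold in the fit, which several alternatives ended, is not read as a test.

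Listed genes, 12 in all, had a region difference in organoids that differed from that in progenitor cells in limma's test of the difference itself. Among the matrix and mesenchyme genes this difference was 3.67 for Dcn, 3.20 for Col6a3, 2.38 for Thy1, 1.94 for Col3a1, 1.87 for Col5a1 and 1.65 for Sparc. From progenitor cells to organoids, Dcn had a difference of 0.42 in medulla and −3.24 in cortex, and Sparc one of −1.06 in medulla and −2.72 in cortex. Saa1, the acute-phase gene, had 5.31 (4.64 in medulla, −0.67 in cortex), and S100a7l2 had 3.16 (4.77 in medulla, 1.61 in cortex; below the threshold at 3.06, adjusted p = 0.24 in limma, with an offset of 1). The calcium buffer Calb1 had 2.62 (4.86 in medulla, 2.24 in cortex). The EF-hand genes Rcn1 and Efhd1 had 2.06 and 1.70, and Fgf1 was the 1 gene with a negative value, −1.67 (−0.26 in medulla, 1.42 in cortex).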

How the results depend on the processing

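Over all alternatives, 1307 of 1393 recomputed differences of the S100 genes moved by less than 1 replicate SD, 82 moved further and 4 turned sign. The 4 were S100a1 in organoids against progenitor cells (−0.08 as the mean of its probe sets, −0.89 with its other probe set), S100a10 in the same comparison (0.39 with quantile normalization) and S100a10 in organoids against tissue (−0.46 with its second probe set). Many of the 1393 could not move. Filters, variance models, the replicate block and the compared groups alone do not change the size of a difference. Neither does leaving out an array of a group that is not compared. The mean of all probe sets changes nothing for a gene with 1 probe set. The count of unmoved differences is therefore no measure of stability. As the mean of all probe sets, 4 list genes turned: Mdm2 in organoids against progenitor cells (1.02), and in organoids against tissue Cebpb (−1.59), S100a16 (−0.28) and Sugt1 (0.11). Of 4585 recomputed differences of named list genes, 179 were no longer past the threshold. Requiring a mean above the median of all means, which tests fewer genes, left 68 list genes past it instead of 103 in progenitor cells against tissue and 65 instead of 105 in organoids against tissue. For region in progenitor cells the 1 list gene became 2 with that filter, with quantile normalization, with 75th percentile scaling and with the median signal as offset, and 10 with the compared groups alone. For region in organoids the compared groups alone gave 17 instead of 36, and for the difference of region differences the mean of all probe sets gave 7 instead of 12. Leaving out 1 array gave 98 to 105, 85 to 93 and 101 to 107 list genes in the 3 stage comparisons, 0 to 6 for region in tissue, 0 to 5 in progenitor cells, 21 to 46 in organoids and 4 to 24 for the difference of region differences. That last count was 6 without either cortex organoid array, 4 or 5 without any 1 progenitor array, and 23 or 24 without either medulla organoid array. The tissue count of 6 came without the second medulla tissue array. With the replicate number as a block the counts were 102, 88 and 106 in the stage comparisons, 35 for region in organoids and 12 for the difference of region differences, so the block moved none of these by over 1.5 times. The causes of these changes were not tested. Values below the array medians, such as those of S100a9 and S100g in progenitor cells, limit the precision of large differences.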
